A study of Mus musculus with 6 samples.

Results

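The small leucine-rich proteoglycans are secreted proteins of the extracellular matrix, here the genes Fmod, Dcn, Bgn, Lum, Ogn, Prelp, Aspn, Omd, Podn and Kera. They were taken from the deposited counts of visceral fat by gene symbol, 10 of the 55011 symbols in the table, and all 10 symbols were found. The genes were chosen by family membership with earlier measured values of these same libraries in view, their CPM in Bmal1KO against Bmal1WT and that of Fmod above all, so the values of these genes in the comparison of the groups are given as a description and without a test of their own. Of the 10 genes, 9 passed the filter on low counts and were part of the fit across all genes, and Kera did not.

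RNA of whole visceral adipose tissue was sequenced in 6 libraries from male C57BL/6 mice, 3 labelled Bmal1WT and 3 labelled Bmal1KO. Both groups carried Foxp3.Cre-YFP, a Cre recombinase with a yellow fluorescent protein under the control of Foxp3, which defines regulatory T cells, and they differed in the allele of Bmal1 (gene symbol Arntl), a transcription factor of the circadian clock. All mice were 30 weeks old, were fed a low-fat diet during 14 weeks and a high-fat diet during the next 16 weeks, and were sampled at zeitgeber time 0. The driver aims the deletion at Foxp3-expressing cells, whereas the RNA came from the whole tissue. The labels do not say that the libraries came from separate animals, and the spread between them may be partly technical.

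Small leucine-rich proteoglycans have a core of leucine-rich repeats that binds collagen fibrils and sets how thick they grow and how they are spaced. Most carry chondroitin, dermatan or keratan sulfate chains. Several also bind growth factors of the TGF-beta family, and soluble biglycan and decorin are known ligands of Toll-like receptors. In fat they are made mainly by stromal cells and fibroblasts, and the matrix they help to build thickens in obesity. By structure, Dcn, Bgn and Aspn form class I, Fmod, Lum, Prelp, Kera and Omd class II, Ogn belongs to class III, and Podn is the podocan type.

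Libraries held between 6514620 and 9529198 counts. Bmal1KO replicate 1 was the shallowest and had counts on 30019 genes, against 19009 to 20145 in the others. Arntl had 242 to 373 counts in Bmal1WT and 289 to 324 in Bmal1KO (33.2 ± 6.16 and 40.1 ± 8.06 CPM, SD, n = 3), and Foxp3 had at most 3 counts in any library, so neither gene checks the genotype in RNA of whole tissue. The adipocyte list fitted the labelled tissue, with all 12 of its genes counted in every library. Of 24 markers of epididymis and testis, Bmal1WT replicate 1 carried 6478 counts and each other library 7 to 50.

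Most members lie in 3 groups of neighbours in the mm10 genome (GENCODE M21). On chromosome 1, Prelp (133910304 to 133921414, minus strand) and Fmod (134037254 to 134048277, plus strand) lie with the related Optc within 151 kb and with no other coding gene between them. On chromosome 10, Dcn (97479609 to 97518143), Lum (97565128 to 97572703), Kera (97606879 to 97613692) and the related Epyc follow each other on the plus strand within 203 kb. On chromosome 13, the related Ecm2 is followed by Aspn (49544443 to 49567565), Omd (49582462 to 49592822) and Ogn (49608046 to 49624501) within 120 kb, all opposite to the gene Cenpp, whose exons share only 7 bases with those of Aspn. Bgn (chromosome X, 73483602 to 73495933) and Podn (chromosome 4, 108014791 to 108096445) stand apart from these groups. Of the exon bases of Prelp, 9.68% are shared with the antisense gene Gm15851, which had 15 counts over all libraries against 5834 to 13478 for Prelp in each.

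Fmod and Aspn were the 2 of the 9 tested members whose libraries did not overlap between the groups, in opposite directions. Of all 13859 tested genes, 15.7% had groups that did not overlap, with either group above. The 250 bases before the RefSeq start sites (GRCm38.p6) of Fmod and Aspn are shown because their groups did not overlap. They are printed 5′ to 3′ on the strand of the gene. Capitals mark the letters TATAAA on either strand.

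Fmod, plus strand, chr1:134037004-134037253: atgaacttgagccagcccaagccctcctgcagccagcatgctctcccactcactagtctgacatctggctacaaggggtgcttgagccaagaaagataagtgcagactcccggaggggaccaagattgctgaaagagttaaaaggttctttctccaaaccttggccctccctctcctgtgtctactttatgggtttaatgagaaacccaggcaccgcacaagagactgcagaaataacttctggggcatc

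Aspn, plus strand, chr13:49544193-49544442: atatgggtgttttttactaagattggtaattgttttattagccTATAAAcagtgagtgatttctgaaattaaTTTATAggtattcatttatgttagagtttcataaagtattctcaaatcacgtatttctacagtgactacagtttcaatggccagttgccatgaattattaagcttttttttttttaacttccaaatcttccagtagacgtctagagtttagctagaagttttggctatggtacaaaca

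The Fmod window was 51.2% G and C, and the Aspn window 30.0%. RefSeq windows were matched for 8 of the 10 members, all but Dcn and Lum, with 9 windows in all, since Podn has a pair of start sites. For Ogn alone, the bases after the RefSeq start were not found in a GENCODE transcript of the gene. The E-box CACGTG, the sequence to which BMAL1 binds with its partner CLOCK, was searched on both strands and was in 0 of these 9 windows, against 6.02% of the 32851 windows of all genes. The letters TGANTCA of an AP-1 site were likewise in 0 of 9, against 6.75% of all windows. TATAAA was in 2 of 9, those of Aspn and Ogn, against 12.4% of all. These matches describe the letters in the windows only.

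Per length of the merged exons, the members differed widely in level, with Dcn and Prelp at the top and Omd and Kera at the bottom in both groups. Levels between genes are given as TPM, counts per length of the merged exons scaled to a fixed sum in each library. In Bmal1WT, Dcn, the gene of decorin, was highest at 1020 ± 178 TPM (SD, n = 3), followed by Prelp at 813 ± 211, Lum at 403 ± 112, Bgn at 276 ± 43.9, Ogn at 119 ± 34.7 and Fmod at 50.8 ± 2.92. Aspn at 28.7 ± 6.88, Podn at 22.7 ± 1.89, Omd at 1.80 ± 1.56 and Kera at 0.526 ± 0.911 were the lowest. Dcn and Prelp overlapped between the Bmal1WT libraries, and Prelp was the higher of both in Bmal1WT replicate 3. Aspn and Podn also overlapped between libraries, although Aspn was the higher in each single library. Omd and Kera overlapped near 0. All other neighbours in this order were separated in all 3 libraries.

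In Bmal1KO the order was the same except that Podn (30.5 ± 6.93 TPM, SD, n = 3) stood above Aspn (19.8 ± 0.801), with no overlap between the libraries of both genes. Dcn was at 1325 ± 39.6 TPM there, clear of Prelp at 645 ± 199, while Lum at 443 ± 63.1 overlapped Bgn at 310 ± 89.8. The place of Bgn depends on the length used: its merged exons measure 6099 bp and its longest transcript 2666 bp, and with the longest transcript of each gene Bgn stood above Lum, at 518 against 327 TPM over the 6 libraries. In that mean over the 6 libraries no other member changed place. In Bmal1KO alone Bgn then also stood above Prelp, at 549 against 500 TPM.

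**Figure D1:**
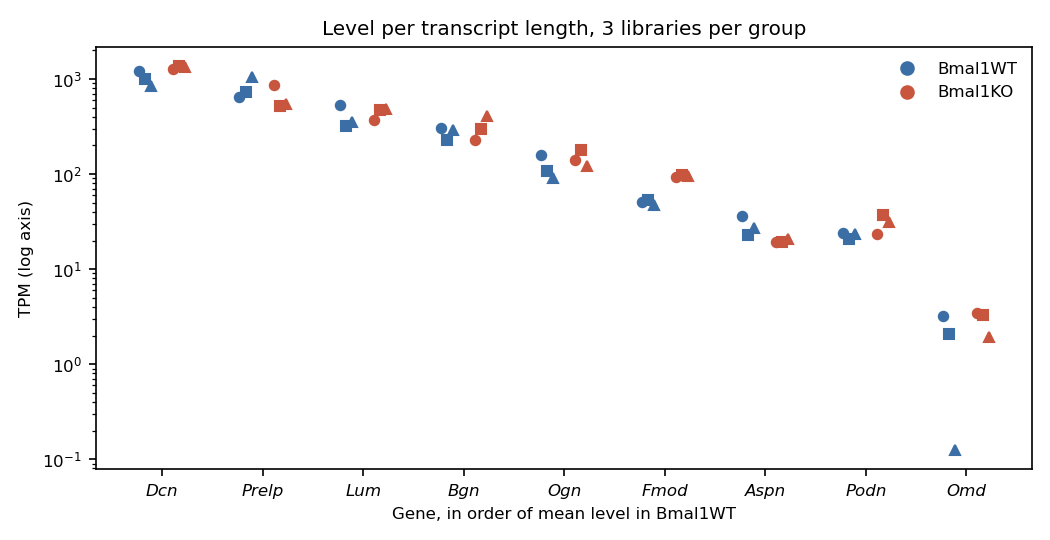
Level per transcript length (TPM, log axis) of 9 members in the 3 Bmal1WT and 3 Bmal1KO libraries, 1 point per library, with genes in order of their Bmal1WT mean. Dcn and Prelp were highest and Omd lowest, and Fmod moved closer to Ogn in Bmal1KO; Kera, at 0 in 5 libraries, is not drawn.

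By summed counts the members made up 0.521%, 0.440% and 0.445% of the Bmal1WT libraries (replicates 1 to 3) and 0.541%, 0.539% and 0.546% of the Bmal1KO libraries. The Bmal1KO libraries thus all lay above the Bmal1WT libraries, the nearest being Bmal1WT replicate 1. The share of Dcn in the members' summed TPM was 31.0% to 40.6% in Bmal1WT and 42.3% to 45.6% in Bmal1KO. In whole tissue, fewer cells of a type and less RNA per cell cannot be told apart.

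In Bmal1KO against Bmal1WT, Fmod was higher and Aspn lower in every library of the group, and the other 7 tested members overlapped between the groups. Across all genes edgeR's quasi-likelihood test called 0 of 13859 (0% of genes, adjusted p under 0.05) and 0 of the 9 tested members, with a smallest adjusted p = 0.265 and with 1290 genes at an unadjusted p under 0.05. Limma voom with quality weights called 0 genes, with 1683 at an unadjusted p under 0.05. DESeq2 called 60 (0.417%), of which Fmod was the only member. Without Bmal1KO replicate 1, edgeR called 156 genes (1.09%), again with Fmod as the only member. Without both replicates 1 it called 61 (0.437%), with 0 members. Fmod was chosen with its values in this comparison in view, so its calls are a description and not a test of it. Groups that did not overlap were found for 7.83% of tested genes with Bmal1KO above and 7.85% with Bmal1KO below, against 1 and 1 of the 9 members. The log2 fold change was above 0 for 7 of the 9 members, with a median of 0.23, and for 52.0% of all genes tested, with a median of 0.02.

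Fmod encodes fibromodulin, a keratan sulfate proteoglycan that binds collagen I beside lumican and takes part in the cross-linking of young fibrils. Its counts were 610, 603 and 559 in the Bmal1WT libraries, in the order of replicates 1 to 3, and 778, 1100 and 938 in the Bmal1KO libraries. All values by library below follow the same order. On the CPM scale these were 69.6, 70.7 and 60.1 in Bmal1WT and 117, 125 and 116 in Bmal1KO. The lowest Bmal1KO library stood well above the highest Bmal1WT library, and the libraries of each group lay close together. The means were 66.8 ± 5.78 and 119 ± 4.56 CPM (SD, n = 3), a 1.79-fold difference (log2 fold change 0.84, SE 0.15). Over the 14 alternative analyses it ran from 0.77 to 0.93. Left out in turn, no single library brought it below 0.77, the shallow Bmal1KO replicate 1 and the Bmal1WT replicate 1 with epididymal genes among them.

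Lum encodes lumican, the closest relative of fibromodulin, which binds the same region of collagen I. It was at 536, 315 and 332 CPM in Bmal1WT and at 348, 447 and 436 in Bmal1KO. The highest library was a Bmal1WT library and the groups overlapped (log2 fold change 0.06, SE 0.22). The value turned to between -0.08 and -0.01 in 3 of the fits that left out a library and was 0.46 without both replicates 1. With these values the ratio of Fmod to Lum counts was 12.98 to 22.4 per 100 in Bmal1WT and 26.7 to 33.6 per 100 in Bmal1KO, with no overlap.

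Prelp encodes a heparin-binding member with a basic start that links basement membranes to the collagen beneath. Its levels were 969, 1065 and 1450 CPM in Bmal1WT and 1215, 720.2 and 724 in Bmal1KO. Bmal1KO replicates 2 and 3 lay below all Bmal1WT libraries, while Bmal1KO replicate 1 lay inside their range. The means were 1162 ± 255 and 886 ± 284 CPM (SD, n = 3; log2 fold change -0.39, SE 0.25). The value was -0.20 without Bmal1WT replicate 3, -0.69 without Bmal1KO replicate 1 and -0.79 without both replicates 1. It is the chromosomal neighbour of Fmod, and the 2 genes differed in sign in all 14 alternatives.

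The other class II genes were at the edge of detection. Omd, the gene of osteomodulin, a keratan sulfate proteoglycan best known from bone, was counted 26, 16 and 1 times in Bmal1WT and 20, 25 and 13 times in Bmal1KO. The single count of Bmal1WT replicate 3 lies under the floor of 3 counts. The fitted log2 fold change was 0.59 (SE 0.88). It was 0.04 without Bmal1WT replicate 3, 1.34 without Bmal1WT replicate 1 and 1.25 with limma voom with quality weights. Kera, the gene of the corneal proteoglycan keratocan, had 13 counts in Bmal1WT replicate 1 and 0 in the other 5 libraries. The floor of 3 counts allows a level of up to between 0.323 and 0.451 CPM in those 5. The library with Kera counts is the one with 6478 counts on epididymal and testis genes, and the part of that in the Kera counts was not tested.

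Among class I genes, Dcn encodes decorin, which carries 1 chondroitin or dermatan sulfate chain, limits the sideways growth of collagen fibrils and binds TGF-beta. It was at 2895, 2353 and 1891 CPM in Bmal1WT and at 2884, 3055 and 2861 in Bmal1KO. Bmal1WT replicate 1 lay inside the Bmal1KO range and the other Bmal1WT libraries lay below it (log2 fold change 0.30, SE 0.20). Without both replicates 1 the value was 0.49, and without Bmal1WT replicate 3 it was 0.16. Within Bmal1KO the libraries differed little, with a coefficient of variation of 3.62% against 21.1% in Bmal1WT.

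Bgn encodes biglycan, which resembles decorin but carries a pair of chains and signals through Toll-like receptors when it is released from the matrix. It was at 775, 550.4 and 682 CPM in Bmal1WT and at 534, 694 and 915 in Bmal1KO. Bmal1KO libraries held both the lowest and the highest value, and the groups overlapped fully (log2 fold change 0.09, SE 0.22). The direction followed single libraries: -0.13 without Bmal1KO replicate 3, -0.02 without Bmal1WT replicate 2 and 0.26 without Bmal1KO replicate 1.

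Aspn encodes asporin, a relative of decorin with a run of aspartates in place of the sugar chain, which binds collagen and TGF-beta. Its counts were 308, 182 and 228 in Bmal1WT and 117, 153 and 145 in Bmal1KO. As CPM these were 35.1, 21.3 and 24.5 against 17.6, 17.3 and 18.0. All Bmal1KO libraries lay below the lowest Bmal1WT library, by a small margin, and they were nearly equal to each other. With only 117 to 153 counts behind them, this closeness and the small SD may understate the spread between libraries. The means were 27.0 ± 7.23 and 17.6 ± 0.335 CPM (SD, n = 3; log2 fold change -0.61, SE 0.25). Part of the distance came from Bmal1WT replicate 1: without it the value was -0.37.

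Ogn encodes osteoglycin, also called mimecan, and Podn encodes podocan; both bind collagen. Ogn was at 167, 110 and 89.1 CPM in Bmal1WT and at 138, 175 and 115 in Bmal1KO (log2 fold change 0.23, SE 0.24). The groups overlapped, and the value ran from 0.04 without Bmal1KO replicate 2 to 0.54 without both replicates 1. Podn was at 42.3, 35.0 and 38.3 CPM in Bmal1WT and at 38.3, 60.9 and 48.9 in Bmal1KO (0.36, SE 0.21). Bmal1KO replicates 2 and 3 stood above all Bmal1WT libraries and Bmal1KO replicate 1 stood among them. Podn was 0.17 without Bmal1KO replicate 2 and 0.51 without Bmal1KO replicate 1.

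**Figure D2:**
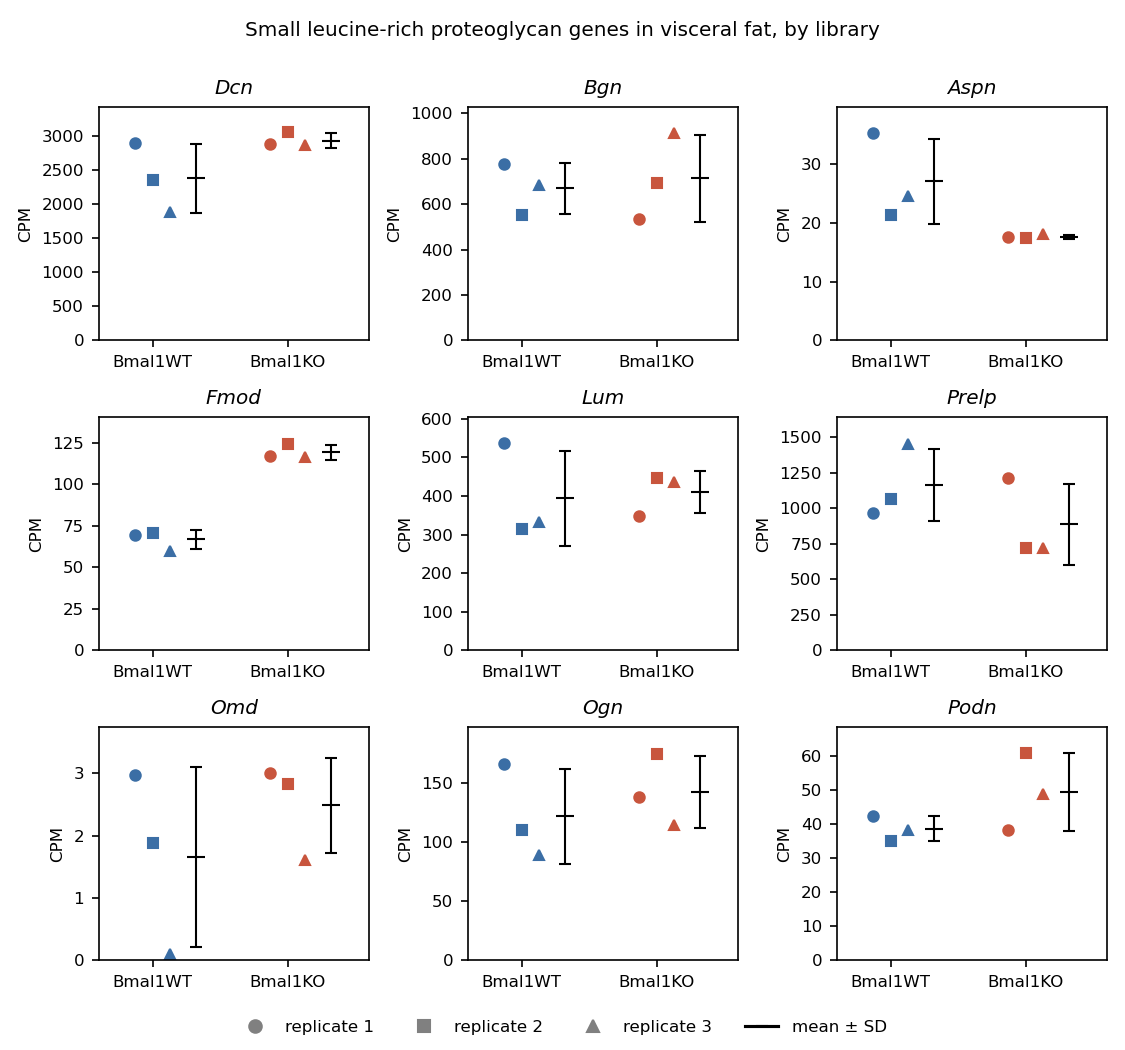
CPM of the 9 tested members in each library, with a linear axis from 0 and mean ± SD of the 3 libraries of a group. The groups are apart for Fmod, at 60.1 to 70.7 against 116 to 125, and for Aspn, at 21.3 to 35.1 against 17.3 to 18.0; they overlap in the other 7 panels.

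Of the 8 other genes of the family, 5 were tested and 0 were called, and the groups overlapped in all 8. Ecm2, which lies beside Aspn, was at 21.4 ± 7.07 CPM in Bmal1WT and 19.5 ± 7.49 in Bmal1KO (SD, n = 3). Epyc, the gene of the cartilage protein epiphycan, ran from 0.538 to 7.76 CPM in Bmal1WT and from 2.85 to 14.4 in Bmal1KO. Tsku, the gene of tsukushi, a secreted protein made by liver and fat, was at 6.11 ± 1.94 and 7.62 ± 3.91 CPM. Optc and Chadl stayed under 3 CPM in every library, Podnl1 reached 5.32 CPM in Bmal1KO replicate 2 and was at 0 in Bmal1KO replicate 3, Chad had 3 counts in 1 library, and Nyx, known from the retina, had 0 in all.

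**Figure D3:**
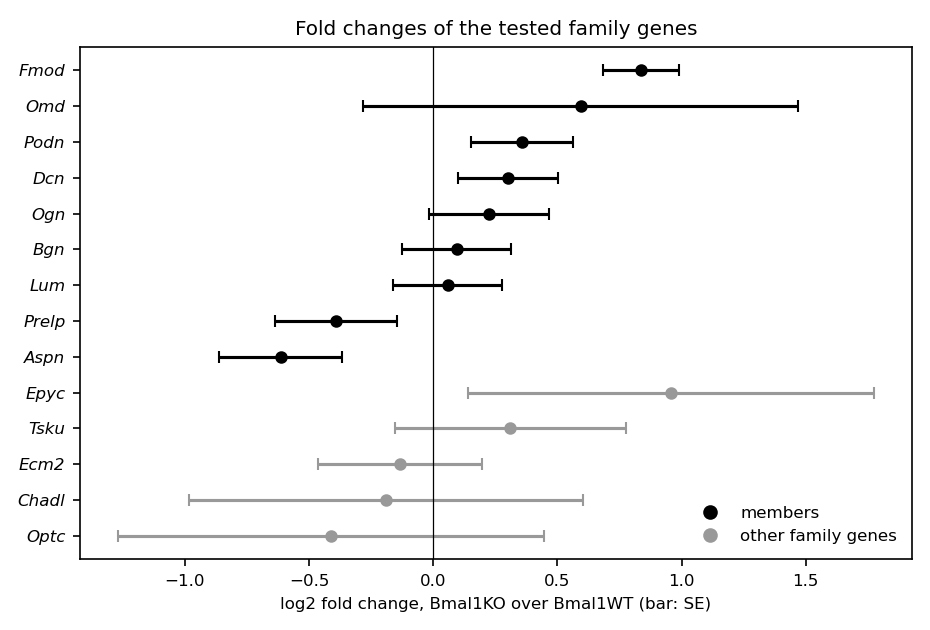
Log2 fold change of Bmal1KO over Bmal1WT with its SE for the 9 tested members (black) and 5 tested relatives (grey), from the edgeR fit over 13859 genes. Fmod at 0.84 and Aspn at -0.61 lie farthest from 0 in relation to their SE among the members, and the wide bars of Omd and Epyc go with their low counts.

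Ratios within a library do not depend on how libraries are scaled, and they were chosen after the values were seen. Per 100 Dcn counts there were 2.40, 3.00 and 3.18 Fmod counts in Bmal1WT and 4.06, 4.08 and 4.07 in Bmal1KO. The Bmal1KO ratios were thus nearly equal and above all Bmal1WT ratios. How close the Bmal1KO ratios lay to each other was not compared with counting error. Per 100 Ogn counts, its neighbour on chromosome 13, Aspn had 19.3 to 27.5 counts in Bmal1WT and 9.90 to 15.7 in Bmal1KO, also without overlap. Prelp per 100 Dcn ran from 33.5 to 76.7 in Bmal1WT and from 23.6 to 42.1 in Bmal1KO, and the ranges overlapped.

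**Figure D4:**
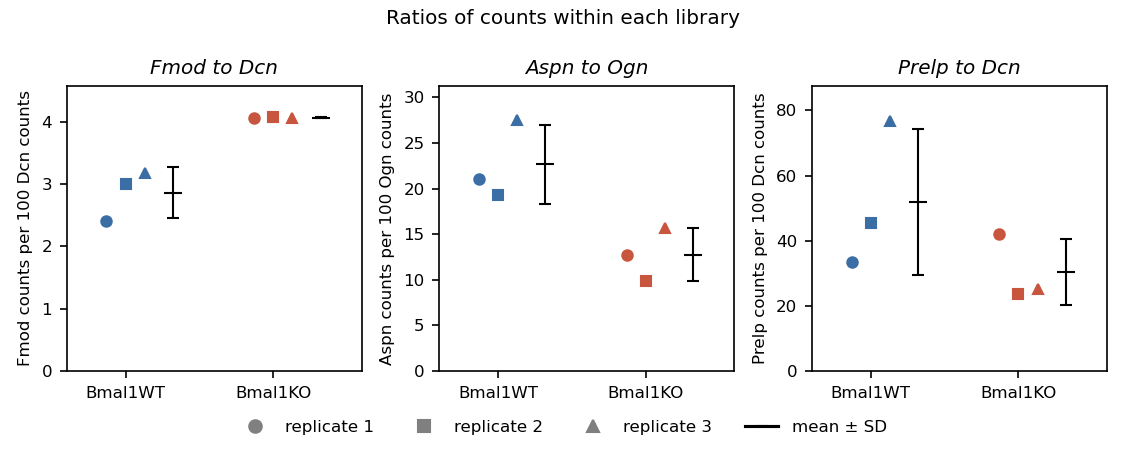
Counts of 1 member per 100 counts of another in each library, with mean ± SD of the 3 libraries of a group. Fmod to Dcn is at 4.06 to 4.08 in Bmal1KO and at 2.40 to 3.18 in Bmal1WT, Aspn to Ogn is lower in Bmal1KO without overlap, and Prelp to Dcn overlaps.

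Over the 6 libraries some members varied together and others did not. The correlations are Pearson's r of log2 CPM over 6 libraries that share the tissue and the difference between groups, and they are a description. Dcn went with Ogn (0.86), Omd (0.91), Fmod (0.77) and its neighbour Lum (0.67), and Lum went with Bgn (0.70) and Ogn (0.72). The values of Omd rest on 1 to 26 counts per library, with the single count in Bmal1WT replicate 3. Bgn was near 0 with Ogn (0.08), Omd (-0.10) and Fmod (0.11). Prelp was below 0 with 7 of the 8 other tested members, from -0.56 with Ogn to -0.82 with Podn, and at 0.32 with Aspn. Aspn stood at -0.78 with Fmod over all libraries, but at 0.12 once each group was centred on its own mean. Once centred, Aspn went with Lum (0.89) and Dcn (0.67). Aspn hardly varied within Bmal1KO (17.6, 17.3 and 18.0 CPM), so its centred values rest mainly on the Bmal1WT libraries. Among those, replicate 1 was the highest for Aspn, Lum and Dcn alike. Of the 36 pairs, 24 were above 0, with a median of 0.27, and of the 28 pairs without Omd 19 were, with a median of 0.23. The 5 pairs of chromosomal neighbours, some with Omd, had a median of 0.06 and a range from -0.65 (Fmod and Prelp) to 0.83 (Ogn and Omd). Once each group was centred on its own mean, the neighbours had a median of 0.64, from -0.65 (Fmod and Prelp) to 0.80 (Ogn and Omd). The 31 other pairs then had a median of 0.34, from -0.725 (Prelp and Podn) to 0.92 (Dcn and Omd).

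**Figure D5:**
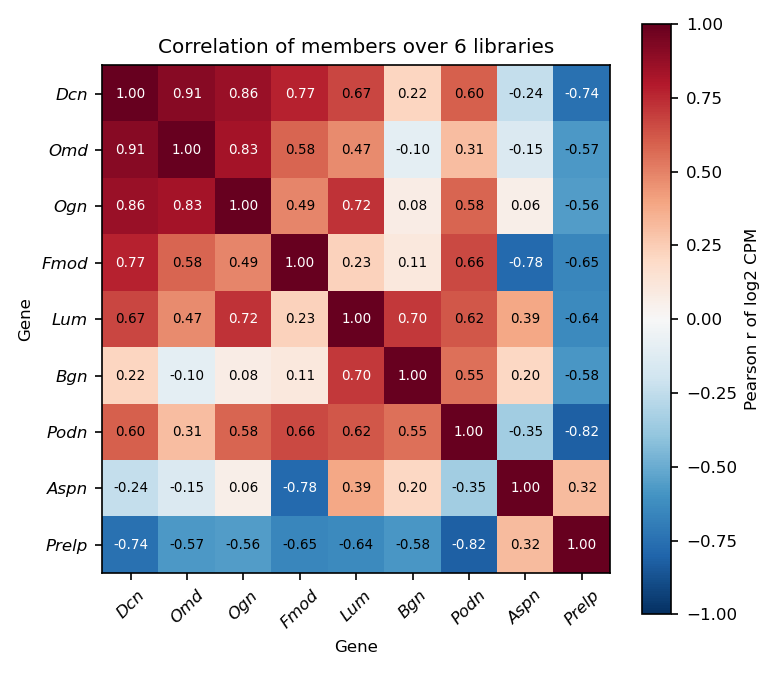
Pearson's r of log2 CPM over the 6 libraries for each pair of the 9 tested members, coloured from -1 to 1. Prelp is below 0 with every member except Aspn, and Dcn, Omd and Ogn are at 0.83 to 0.91 with each other; Omd had only 1 to 26 counts per library.

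By likeness over the 6 libraries, the protein-coding genes nearest to Fmod were Aebp1 (Pearson's r 0.99), Cidea, Uba6, Nxph1 and Ptprj, and 45 of the 12252 genes ranked had an r above 0.95. The ranking includes the difference between the groups, so genes nearest to Fmod were picked for separating the groups as Fmod does. Aebp1, a secreted collagen-binding protein of fibroblasts and fat progenitors, was at 209 to 257 CPM in Bmal1WT and 353 to 386 in Bmal1KO. Cidea, a lipid droplet protein of brown and beige fat, was at 2.58 to 4.22 and 8.27 to 9.06 CPM. The genes nearest to Dcn were Slc35a3 (r 0.998), a Golgi transporter of the sugar nucleotide UDP-N-acetylglucosamine, Nlgn2, Il21r, Pard6b and Nasp, each at under 30 CPM. At levels as low as those of Cidea and Slc35a3 (3.77 to 6.91 CPM), the high r was not compared with counting error.

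Among genes that build, bind or cut these proteoglycans, edgeR called 0 in each list. For chondroitin and dermatan sulfate synthesis, 10 of 21 tested genes had a log2 fold change above 0 and 11 below (median -0.04). Chst12, a chondroitin sulfotransferase, was at 126 ± 13.4 CPM in Bmal1WT and 92.7 ± 16.4 in Bmal1KO (SD, n = 3), without overlap. The same held for Dsel, a likely dermatan sulfate epimerase, in the other direction (4.68 to 5.49 and 5.89 to 9.02 CPM), and for Chst13, which was near the floor in Bmal1KO. Chst3, a further sulfotransferase, was between 0 and 7.07 CPM. For keratan sulfate, the chain of Fmod, Lum and Omd, 4 of 7 tested genes were above 0 and 3 below (median 0.07), and groups overlapped in all 7. B4galt4, a galactosyltransferase, was at 18.1 ± 1.16 and 23.9 ± 5.50 CPM.

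Receptors had 10 of 12 tested genes above 0, with a median of 0.30. Tlr4 and Tlr2, the receptors of soluble biglycan, were at 17.5 ± 5.27 and 34.3 ± 6.77 CPM in Bmal1WT and at 30.0 ± 7.63 and 48.3 ± 12.9 in Bmal1KO (SD, n = 3), and both overlapped. Met, a receptor that decorin binds, was at 4.22 to 7.75 and 8.19 to 18.2 CPM. Both Toll-like receptors are also expressed by macrophages. The 10 macrophage markers, 8 above 0 with a median of 0.36, summed to 4580 to 6525 CPM in Bmal1WT and 3954 to 8208 in Bmal1KO. Their part in the values of the receptors was not tested. Of the TGF-beta list 9 of 14 were above 0 (median 0.09). Tgfbr1, a receptor kinase, was at 18.8 to 18.9 CPM in Bmal1WT and 21.1 to 25.8 in Bmal1KO, and Ltbp3, a latent TGF-beta binding protein, was lower, at 160.0 to 165 and 112 to 157 CPM. Of the proteases 7 of 12 were above 0 (median 0.16). Mmp13, a collagenase that cuts fibromodulin, was at 1.05 to 3.08 and 3.16 to 4.87 CPM. Adamts5, which cleaves proteoglycans, was at 314 ± 69.3 and 234 ± 106 CPM and overlapped.

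Of 18 tested fibril genes 7 were above 0 and 11 below, with a median of -0.15, and 4 of 18 had all Bmal1KO libraries below all Bmal1WT libraries, against 7.85% of all genes. These 4 were Col12a1, Col5a1, Col6a1 and Col6a2. Col6a1, a chain of the collagen VI microfibril that decorin and biglycan bind, was at 710.1 ± 143 CPM in Bmal1WT and 475 ± 59.2 in Bmal1KO (SD, n = 3; log2 fold change -0.58, SE 0.19). Col5a1, which starts collagen fibrils, was at 120 ± 17.7 and 80.2 ± 12.9 CPM (-0.58, SE 0.18), and Col12a1, a collagen of the fibril surface, at 23.7 ± 3.27 and 13.9 ± 2.04 (-0.78, SE 0.24). Proteoglycans outside the family had a median of 0.00 over 15 tested genes, and Gpc4, a glypican of the cell surface, was at 67.9 to 77.0 CPM in Bmal1WT and 31.9 to 51.3 in Bmal1KO.

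The summed markers of mesothelium, T cells and mural cells did not overlap between the groups, those of the other cell types did, and edgeR called 0 genes of any marker list. Their part in the values of the members was not tested. Stromal and fibroblast markers, 9 of 14 above 0 with a median of 0.10, summed to 12331 to 15835 CPM in Bmal1WT and 8372 to 14009.8 in Bmal1KO, most of it from Gsn. Of them Fbln1 alone did not overlap (58.2 to 107 and 121 to 226 CPM). Mesothelial markers, all 13 above 0, summed to 286 to 568 CPM in Bmal1WT and 632 to 663 in Bmal1KO. T cell markers, all 10 above 0, summed to 17.6 to 72.9 and 94.0 to 224 CPM, while mural cell markers, all 8 tested below 0, summed to 399 to 424 and 274 to 332 CPM. Endothelial markers, all 10 below 0 with a median of -0.64, summed to 428 to 911 CPM in Bmal1WT and 286 to 510 in Bmal1KO. B cell markers, all 6 tested above 0 with a median of 2.05, summed to 30.1 to 57.5 and 36.2 to 323 CPM, the highest in Bmal1KO replicate 3. Adipocyte markers, all 12 below 0, ran from 34603 to 42771 CPM and from 21801 to 43447. Singly, 6 of 10 T cell, 3 of 13 mesothelial, 2 of 10 macrophage and 1 of 6 tested B cell markers had Bmal1KO above without overlap. The share of all genes was 7.83%. With Bmal1KO below there were 2 of 10 endothelial, 1 of 8 tested mural and 1 of 12 adipocyte markers, against 7.85% of all genes. Tendon markers, cells known for Fmod and Kera, summed to at most 12.0 CPM in any library with Scx at 0 in all, and 5 of 6, Kera itself among them, were at 0 in at least 1 library.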

How the data were processed

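The deposited values are whole-number counts per gene symbol, which the authors obtained with STAR 2.7.3a on mm10 and featureCounts; the submitters' processing notes name these tools, and neither annotation nor strand setting is stated in the sources used here. Per the labels' protocols, libraries were made from 2 ng of RNA with an oligo(dT) primer and the Nextera XT kit and read as pairs of 38 bp, which marks no strand and no molecules, so amplified copies count as reads and floors cover counting error only.

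Counts were tested with edgeR 4.0.16 (R 4.3.3), Bmal1KO against Bmal1WT: filterByExpr (13859 genes kept), TMM, quasi-likelihood F-test with robust dispersion and Benjamini-Hochberg adjustment at 0.05. CPM values use TMM-scaled library sizes, also for genes under the filter, and SD is over 3 libraries. The SE is the unshrunken log2 fold change over the square root of F. TPM used the merged exon length of GENCODE M21 for the 52897 symbols that matched 1 gene. Log2 CPM for correlations used a prior count of 2. Promoters came from RefSeq (GRCm38.p6). The test was checked on simulated data.

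All members were named; from other lists up to 3 tested genes of smallest p, and the 5 genes nearest to Fmod and Dcn. The members and lists were chosen with earlier results of these data known. Dsel, Col6a2, Fbln1, Gsn, Ecm2, Chadl and the other low family genes were named after their values were seen. Alternatives used DESeq2 1.42.0, limma 3.58.1 (voom with quality weights), other scalings, filters and a threshold of 0.1, the replicate number as a block, and left-out libraries. A planned description of protein sequence features was not made.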

Additional observations from a re-analysis of the deposited data

How the results depend on the processing

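The count of genes past the threshold was 0 when edgeR scaled by size factors of DESeq2 or by library size. It was also 0 with limma voom with quality weights and with a filter of 1 CPM in 3 libraries. The same held at an adjusted p under 0.1 and with the replicate number as a block. The count was 60 of 14400 (0.417%) with the DESeq2 test (36 higher, 24 lower). With no filter on low counts it was 186 of 34517 (0.539%, 108 higher, 78 lower), and without both replicates 1 it was 61 of 13958 (0.437%, 11 higher, 50 lower). Leaving out each library in turn gave 0 to 156, the highest without Bmal1KO replicate 1 (1.09% of 14247). Fmod was among the genes called by DESeq2, without the filter and without Bmal1KO replicate 1, and no other member was called in any of these analyses. As Fmod was chosen with this comparison in view, these calls describe it and do not test it. The causes of the differences between the analyses were not tested. Same-numbered libraries had correlations of -0.07, 0.09 and -0.03 in their deviations from the group means, so the numbers were not taken to pair them; with the replicate block edgeR called 0 genes, with 1121 at an unadjusted p under 0.05. The direction held in all 14 alternatives for Fmod, Dcn, Ogn, Omd and Podn (above 0) and for Prelp and Aspn (below 0), but not for Bgn (12 above, 2 below) and Lum (11 above, 3 below). Lum at 0.46 and Prelp at -0.79, both without both replicates 1, moved beyond the spread between libraries. With the longest transcript as length the members' summed TPM was 2745 against 2877. Low counts limit Omd and Kera.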
